A study of Homo sapiens with 4 samples.

Results

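The 9 genes of translesion synthesis and damage bypass (POLH, POLI, POLK, REV1, REV3L, RAD18, HLTF, SHPRH and PRIMPOL) were examined in OVCAR3 cells, a line of high-grade serous ovarian carcinoma. They were chosen by name for their roles in the pathway, with earlier results of these data known. They are 9 of 60605 annotated genes in the data, and all 9 passed the filter on low values. RNA of 4 libraries was sequenced, 2 from cultures exposed to etoposide (1.7 µM, 24 h) and 2 from cultures given its vehicle, DMSO, for the same time. Both groups had first spent 16 h in nocodazole at 100 ng/mL, which arrests cells in mitosis, and then 3 h in medium without it, so that the comparison is between cultures which had all met nocodazole. Etoposide is an inhibitor of topoisomerase II that leaves breaks in DNA, nocodazole is an inhibitor of microtubule assembly, and the comparison asks how transcript levels differed after the damage. The labels call the replicates biological without naming separate cultures, so that the tests measure the spread between these libraries.

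When a replication fork meets a damaged base, the replicative polymerases stall, and cells can go past the lesion in several ways. RAD18 attaches a single ubiquitin to PCNA, the sliding clamp of replication, which recruits the polymerases of translesion synthesis (POLH, POLI, POLK, REV1 and polymerase zeta with its catalytic subunit REV3L), enzymes that copy across lesions, often with errors. HLTF and SHPRH extend the ubiquitin to a chain, which favours copying from the undamaged sister strand, and PRIMPOL lays a new primer beyond the lesion.

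The mapped bases corresponded to 47687126 and 58513480 read pairs in the etoposide libraries, against 64473397 and 66500749 in the DMSO libraries. The 9 markers of epithelial and serous ovarian cells were all at a mean FPKM of at least 1 (fragments per kilobase of a transcript, relative to all mapped fragments), with sums of 2060 and 2128 FPKM in etoposide and 2980 and 2640 FPKM in DMSO libraries. Markers of other cells were low. The 6 fibroblast markers summed to 8.40 and 8.18 FPKM in etoposide and 6.93 and 6.99 FPKM in DMSO libraries, and 2 of them (COL1A1 and COL1A2) were at 1 or above. The 5 leukocyte markers summed to 1.12 and 1.29 FPKM in etoposide and 1.70 and 1.40 FPKM in DMSO libraries, with 0 at 1 or above. Sums were 5.16 and 5.06 FPKM in etoposide and 4.41 and 5.61 FPKM in DMSO libraries for the 4 endothelial markers, and 2.102 and 2.53 FPKM in etoposide and 2.92 and 1.96 FPKM in DMSO libraries for the 3 mesothelial markers, each list having 1 gene at 1 or above. DMSO replicate 1 stood apart from the other libraries. Over 1287 long transcripts that dominate their gene, the coverage of the 3′ end (the last 3 of 10 equal segments) over that of the 5′ end (the first 3 segments) had a median of 1.00 and 0.995 in the etoposide libraries, against 1.27 and 0.981 in DMSO replicates 1 and 2. Across 22185 genes, the log2 difference of DMSO replicate 2 minus replicate 1 had a Spearman correlation of −0.34 with GC content and 0.31 with transcript length, while that of etoposide replicate 2 minus replicate 1 had −0.017 and 0.015. The leading transcripts of 8 of the 9 bypass genes were longer than those of 80% of the genes tested, and those of 8 were among the lowest 30% in GC content, so each result is given with the value of each library.

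The 9 genes covered a 14.5-fold range of levels, and 8 of them were higher on average after etoposide, as were 56.2% of all genes tested, although 0 passed the test. By mean FPKM over the 4 libraries their order was HLTF, REV3L, REV1, RAD18, PRIMPOL, POLH, SHPRH, POLK and POLI. The ranges over libraries overlapped between the neighbours REV1 and RAD18, RAD18 and PRIMPOL, SHPRH and POLK, and POLK and POLI, and did not overlap between the other neighbours. In 7 of the 9 genes both etoposide libraries lay above both DMSO libraries, and in 0 both lay below, while 28.9% of all genes tested lay wholly above and 19% wholly below. After a correction of each library for length and GC content, 6 of the 9 lay wholly above and 2 wholly below. The share of all genes in that setting is not given here, so this count has no background. Without DMSO replicate 1, REV3L and POLI were lower after etoposide, with log2 fold changes of −0.24 and −0.16. By limma on log2(FPKM + 0.1), with Benjamini-Hochberg adjustment over the 22185 genes, the adjusted p of the 9 genes ranged between 0.392 and 0.906. The same held for the background, where 0 genes were past an adjusted p of 0.05, or 0%. Unadjusted p-values were under 0.05 for 3 of the 9 genes (RAD18, POLK and SHPRH), all higher, against 7.06% of all genes higher and 4.85% lower. With estimated fragments and limma's voom, 0 of the 9 genes and 1 gene overall were past the adjusted threshold. The median log2 fold change was 0.23 over the 9 genes, or 0.12 after the correction, and 0.036 over all genes tested. No gene of the 9 differed by as much as 1.5-fold, a size which 3.78% of all genes reached in the higher direction. A permutation of 2 against 2 libraries cannot give an exact two-sided p under 0.333. In RNA of whole cultures, a lower level from fewer cells that express a gene and one from less RNA per cell cannot be told apart.

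**Figure D1:**
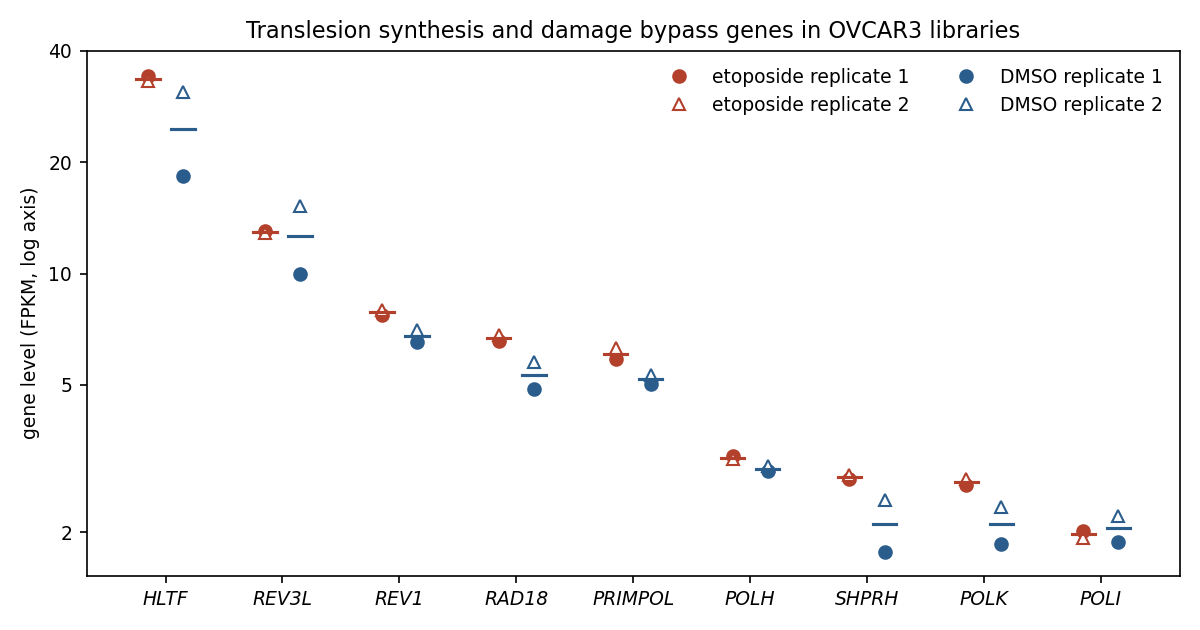
Level of each gene (FPKM, log axis) in the 4 libraries, with genes ordered by mean level. Filled circles and open triangles are replicates 1 and 2, bars are group means, and etoposide stands left of DMSO. Both etoposide points lie above both DMSO points in 7 of 9 genes, and overlap is seen for REV3L and POLI.

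The libraries of the etoposide group were close to each other, with a ratio of replicate 2 over replicate 1 between 0.958 and 1.07 over the 9 genes and 5 of 9 above 1. Between the DMSO libraries the ratio lay between 1.03 and 1.68, and all 9 genes were lower in replicate 1. The difference between the DMSO replicates was thus larger than that between the etoposide replicates for all genes but PRIMPOL, and it ran in a single direction. Without DMSO replicate 2, where replicate 1 alone stands for DMSO and is assumed to vary like the etoposide libraries, 4 of the 9 genes (HLTF, REV3L, RAD18 and SHPRH) passed an adjusted p of 0.05 by limma. In that fit 1934 genes passed in all. Without DMSO replicate 1, 0 of the 9 genes and 5 genes overall passed. The median over the 9 genes was 0.38 and 0.15 in these 2 fits.

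**Figure D2:**
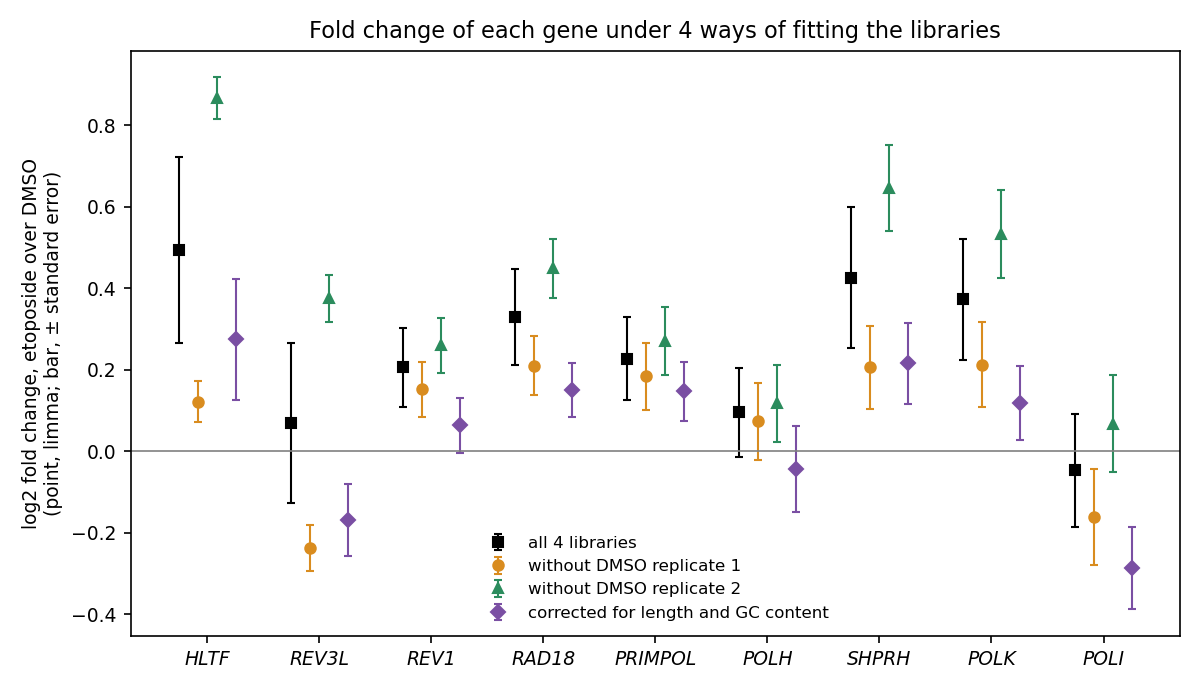
Log2 fold change of each gene (etoposide over DMSO, limma; bars are ± 1 standard error) with all 4 libraries, without either DMSO library, and after a correction for length and GC content. REV3L is at 0.38 without DMSO replicate 2 and at −0.24 without DMSO replicate 1, while POLH, REV1 and PRIMPOL varied least between the DMSO libraries left out.

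RAD18 (chr3:8775402-8963773, minus strand, GRCh38), the E3 ligase that starts damage bypass at PCNA, had 6.59 and 6.81 FPKM in etoposide libraries and 4.88 and 5.78 FPKM in DMSO libraries. It averaged 6.70 ± 0.15 FPKM after etoposide and 5.33 ± 0.63 FPKM after DMSO (SD, n = 2 each). The groups did not overlap, and both DMSO libraries were lower, replicate 1 more so. The log2 fold change was 0.33 with a standard error of 0.12 (limma, adjusted p = 0.392), and the etoposide mean was 1.37 times DMSO replicate 1 and 1.16 times DMSO replicate 2. After the length and GC correction the log2 fold change was 0.15. Its coverage was above the DMSO mean in all 10 segments of the leading transcript, by 0.41 on the log2 scale at the 5′ end and 0.26 at the 3′ end. Coverage was given as a mean per exon, and segments 4 to 10 hold the same value, so they are not separate observations. ENST00000264926, which encodes 495 residues, held 97.4% to 98.3% of the gene's FPKM in every library, and no gene on the other strand shares exonic bases with it.

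HLTF (chr3:149030127-149086554, minus strand), a ligase for PCNA chains that also reverses stalled forks, was the most abundant of the 9, with 34.1 and 33.1 FPKM in etoposide libraries and 18.4 and 30.9 FPKM in DMSO libraries. The 2 etoposide libraries and DMSO replicate 2 lay close together, and DMSO replicate 1 was far lower. The means were 33.6 ± 0.68 FPKM after etoposide and 24.6 ± 8.8 FPKM after DMSO (SD, n = 2 each), the log2 fold change was 0.49 with a standard error of 0.23, and the adjusted p was 0.444 (limma). Against DMSO replicate 1 alone the etoposide mean was 1.83 times as high, and against DMSO replicate 2 it was 1.09 times as high. Without DMSO replicate 1 the log2 fold change was 0.12 (limma, adjusted p = 0.388), and without DMSO replicate 2 it was 0.87 (limma, adjusted p = 0.0333), and after the length and GC correction 0.27. HLTF was lower in DMSO replicate 1 than in replicate 2 in all 10 segments of its leading transcript, by 0.44 to 1.31 on the log2 scale. Of that transcript, 1649 bases (31.1%) overlap exons of GYG1, a glycogenin gene on the other strand. GYG1 was at 25.2 and 19.0 FPKM in etoposide and 19.0 and 24.1 FPKM in DMSO libraries. The authors' counting held no strand option, so reads of overlapping genes on opposite strands may not all have been told apart.

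SHPRH (chr6:145864245-145964423, minus strand), the second ligase for PCNA chains, had 2.79 and 2.86 FPKM in etoposide libraries and 1.77 and 2.44 FPKM in DMSO libraries. The groups did not overlap, and DMSO replicate 1 was again the lowest. The log2 fold change was 0.43 with a standard error of 0.17 (limma, adjusted p = 0.417), and the etoposide mean was 1.60 times DMSO replicate 1 and 1.16 times DMSO replicate 2. After the length and GC correction the log2 fold change was 0.22. The excess over DMSO replicate 1 was uneven, with log2 ratios of 1.25 at the 5′ end and 0.033 at the 3′ end. Against DMSO replicate 2 the ratios were 0.14 and 0.29. SHPRH shares 1981 exonic bases, 27.5% of its leading transcript, with FBXO30-DT, a non-coding RNA on the other strand that was at 0.559 and 0.723 FPKM in etoposide and 0.546 and 0.586 FPKM in DMSO libraries.

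**Figure D3:**
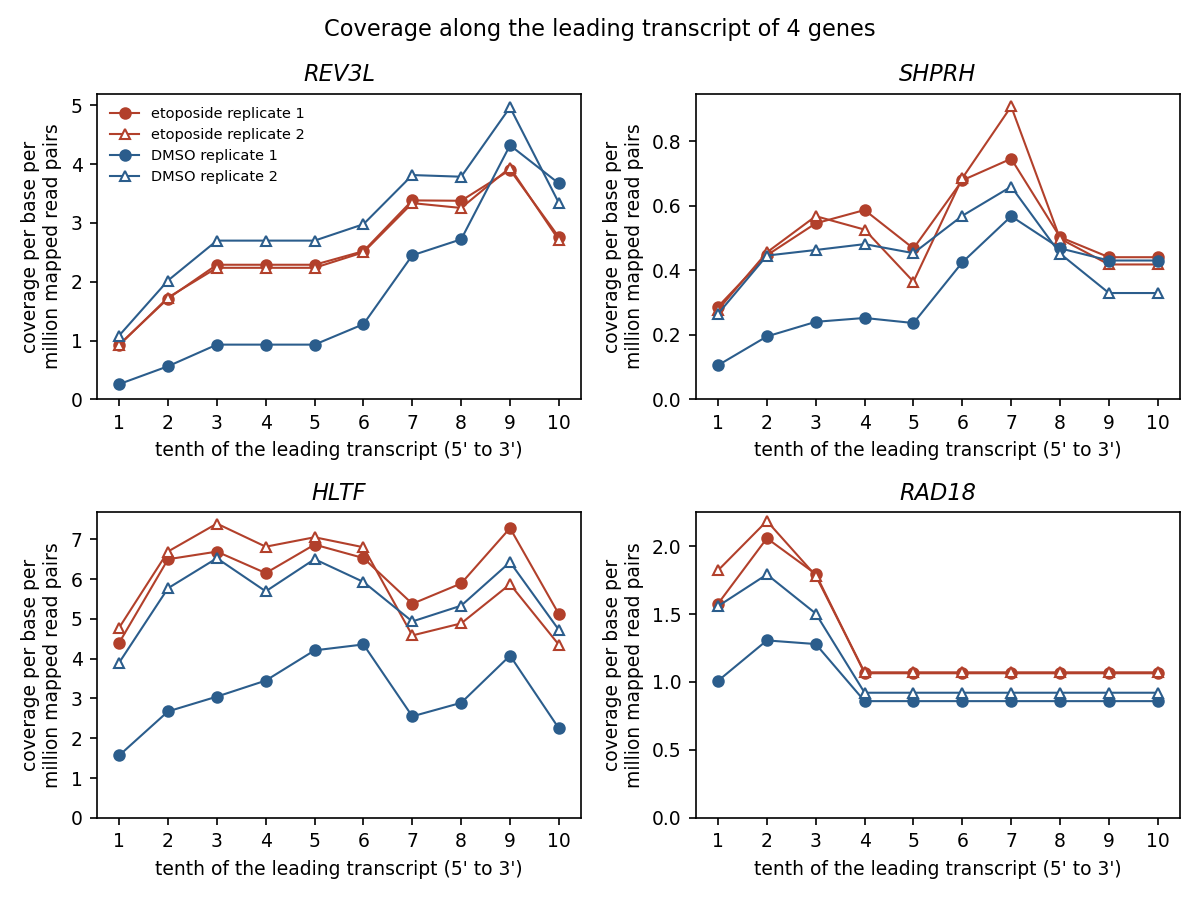
Coverage per base, scaled to mapped read pairs, in 10 equal segments of the leading transcript, 5′ to 3′, for REV3L, SHPRH, HLTF and RAD18, with a line for each library. DMSO replicate 1 is the lowest line in the 5′ segments of all 4 genes. At the 3′ end it lies among the other lines in SHPRH, and in REV3L it is the highest line in segment 10. Coverage was given as a mean per exon, so that a line can run flat within a long exon.

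POLH (chr6:43576185-43620523, plus strand), the polymerase eta that copies accurately across ultraviolet dimers, had 3.21 and 3.15 FPKM in etoposide libraries and 2.92 and 3.01 FPKM in DMSO libraries. The groups did not overlap, but the distance was small, with a log2 fold change of 0.095 and a standard error of 0.11 (limma, adjusted p = 0.724), and of −0.043 after the length and GC correction. Its level was among the steadiest of the 9, the lowest library being DMSO replicate 1 at 2.92 FPKM. ENST00000372236, which encodes 713 residues, held 94.1% to 98.3% of the FPKM. It shares 261 bases (3.12%) with exons of GTPBP2 on the other strand. GTPBP2 was at 10.2 and 10.6 FPKM in etoposide and 9.88 and 9.86 FPKM in DMSO libraries, and the part of its reads in the POLH value was not tested.

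POLK (chr5:75511756-75601144, plus strand), polymerase kappa, extends past bulky adducts in the minor groove, and had 2.69 and 2.78 FPKM in etoposide libraries and 1.86 and 2.35 FPKM in DMSO libraries. The groups did not overlap, with a log2 fold change of 0.37 and a standard error of 0.15 (limma, adjusted p = 0.413), and of 0.12 after the length and GC correction. In contrast to SHPRH and REV3L, the difference of POLK from the DMSO mean was not smaller at the 3′ end, with log2 ratios of 0.42 at the 5′ end and 0.58 at the 3′ end. At the 3′ end the ratio was 0.61 over DMSO replicate 1 and 0.56 over replicate 2, and at the 5′ end 0.82 and 0.11. Coverage was a mean per exon, and segments 9 and 10 of POLK hold the same values, so they are not separate observations. The share of the full-length transcript ENST00000241436, which encodes 870 residues, was 64.2% and 51.3% in etoposide and 43.8% and 56.4% in DMSO libraries, so that it varied by more within the groups than between their means.

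POLI (chr18:54269517-54321266, plus strand), polymerase iota, was the lowest of the 9, with 2.02 and 1.93 FPKM in etoposide libraries and 1.88 and 2.22 FPKM in DMSO libraries. The 2 DMSO libraries lay on either side of the etoposide libraries, and the log2 fold change was −0.046 with a standard error of 0.14 (limma, adjusted p = 0.906), and −0.29 after the length and GC correction. The spread between the DMSO libraries was larger than the difference between the groups. Transcripts annotated as retained introns held 25.2% and 16.0% of its FPKM in etoposide and 20.5% and 24.8% in DMSO libraries.

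REV1 (chr2:99400475-99490035, minus strand), a deoxycytidyl transferase and the scaffold that the other polymerases bind, had 7.75 and 7.96 FPKM in etoposide libraries and 6.54 and 7.06 FPKM in DMSO libraries. The groups did not overlap, and the log2 fold change was 0.21 with a standard error of 0.096 (limma, adjusted p = 0.445), and 0.064 after the length and GC correction. The ratio of the etoposide mean was close for both DMSO libraries, at 1.20 over replicate 1 and 1.11 over replicate 2. Its 2 main coding transcripts share 99.0% or more of their bases, so that their split was uncertain, and protein-coding transcripts together held 52.4% and 52.0% of the FPKM in etoposide and 55.6% and 53.7% in DMSO libraries. A stretch of 852 bases (18.2%) of the leading transcript overlaps EIF5B, a translation factor gene on the other strand at 36.0 and 35.6 FPKM in etoposide and 35.3 and 34.6 FPKM in DMSO libraries.

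REV3L (chr6:111299028-111483715, minus strand), the catalytic subunit of polymerase zeta, which extends from the bases that the other polymerases insert, had 13.0 and 12.8 FPKM in etoposide libraries and 9.95 and 15.3 FPKM in DMSO libraries. As for POLI, the DMSO libraries lay on either side of the etoposide libraries, and the log2 fold change was 0.070 with a standard error of 0.20 (limma, adjusted p = 0.900). The etoposide mean was 1.30 times DMSO replicate 1 and 0.848 times DMSO replicate 2. Without DMSO replicate 1 the log2 fold change was −0.24 (limma, adjusted p = 0.243), and without replicate 2 it was 0.38 (limma, adjusted p = 0.0415). After the length and GC correction it was −0.17. The direction therefore turned with the DMSO library used. Coverage of the 3′ end over the 5′ end was 2.03 and 2.03 in etoposide libraries, against 6.12 in DMSO replicate 1 and 2.08 in replicate 2. At the 3′ end REV3L was lower after etoposide than in either DMSO library, with log2 ratios of −0.10 and −0.28 over replicates 1 and 2. How much of the gene's values was set by the lower 5′ coverage in DMSO replicate 1 was not tested.

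The division of REV3L among its transcripts also differed between libraries. The transcripts ENST00000358835 and ENST00000368802, both encoding 3130 residues, were at 2.51 and 6.48 FPKM and at 4.16 and 0.805 FPKM in etoposide libraries. In DMSO libraries they were at 0.001 and 7.64 FPKM and at 8.95 and 0.071 FPKM. The main transcript was thus a different one in the 2 DMSO libraries. ENST00000422377, annotated for nonsense-mediated decay, was at 3.12 and 0.865 FPKM in etoposide and 0.046 and 0.079 FPKM in DMSO libraries, with a log2 fold change of 3.45 and a standard error of 0.70 (limma, adjusted p = 0.627). It was the only one of 43 transcripts tested, of 106 annotated for the 9 genes, with an unadjusted p under 0.05, a level which 2.95% of all 71340 transcripts tested reached in the higher and 2.83% in the lower direction. By limma 0 of the 43, and 0% of all transcripts, were past an adjusted p of 0.05, and with voom 0 of the 43 were. The 4 main REV3L transcripts share 97.6% to 100% of their bases, so that few reads separate them.

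**Figure D4:**
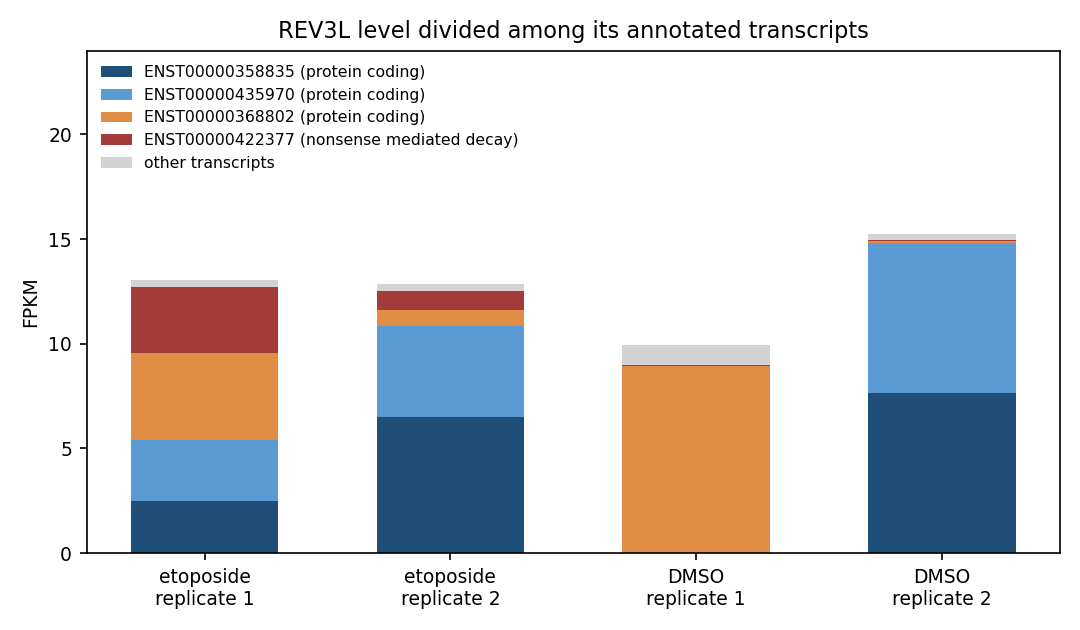
FPKM of REV3L in each library, divided among its annotated transcripts. The sum is 13.0 and 12.8 in etoposide and 9.95 and 15.3 in DMSO libraries, and the leading transcript is ENST00000368802 in DMSO replicate 1 and ENST00000358835 in DMSO replicate 2.

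PRIMPOL (chr4:184649667-184694963, plus strand), the primase and polymerase that restarts synthesis beyond a lesion, had 5.87 and 6.28 FPKM in etoposide libraries and 5.02 and 5.33 FPKM in DMSO libraries. The groups did not overlap and the replicates of each were close, with a log2 fold change of 0.23 and a standard error of 0.10 (limma, adjusted p = 0.435), and of 0.15 after the length and GC correction. The ratio of the etoposide mean was 1.21 over DMSO replicate 1 and 1.14 over replicate 2. Its leading transcript, which encodes 560 residues, shares 395 bases (18.2%) with exons of CENPU, a centromere protein gene on the other strand at 20.7 and 19.5 FPKM in etoposide and 15.2 and 17.9 FPKM in DMSO libraries. CENPU was higher in both etoposide libraries too, and the part of its reads in the PRIMPOL value was not tested.

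The promoters of the genes differed in the short motifs they hold. The 250 bases before each annotated start were taken from RefSeq (GRCh38.p14), where all 9 genes matched, REV3L with 2 starts. These starts are not all the starts of the leading transcripts. The windows of POLI, POLK, SHPRH, PRIMPOL and the first REV3L start reach downstream of the start of the leading transcript. The last bases printed for POLI thus lie inside the span of its leading transcript. The window of the second REV3L start lies wholly inside the span of ENST00000358835, and directly before the start of ENST00000368802. Both strands were searched for the E2F words TTTCCCGC, TTTCGCGC, TTTGCCGC and TTTGGCGC, and for the CCAAT box (CCAAT), GC box (GGGCGG), ETS word (CCGGAAG), NRF1 palindrome (by its name, shown in capitals in RAD18), CHR (TTTGAA), CRE (TGACGTCA) and TATA box (TATAAA). An E2F word was found in HLTF, POLI and the second REV3L promoter, and in 2.79% of all 35116 promoters. An ETS word was in POLI and RAD18 (8.52% of all), the NRF1 palindrome in RAD18 (1.03%), CCAAT in HLTF (32.01%), CHR in HLTF and PRIMPOL (13.3%), the TATA box in the first REV3L promoter (10.7%) and CRE in none of the 10 (1.65%). The GC box was in 9 of the 10, against 42.6% of all. The GC content of the 10 lay between 56.8% (RAD18) and 80.8% (REV1 and PRIMPOL), against a median of 58% over all promoters. Only RAD18 and SHPRH (57.6%) were under that median, and the part of GC content in the GC box count was not tested. The promoters with E2F, ETS or NRF1 words, the less common matches, are shown 5′ to 3′ on the strand of the gene, with E2F, ETS, NRF1 and CCAAT matches in capitals. A match describes letters and is not a measured site. They are in the order HLTF (chr3:149086534-149086783, minus strand), RAD18 (chr3:8963473-8963722, minus strand), POLI (chr18:54269324-54269573, plus strand) and the second start of REV3L (chr6:111483219-111483468, minus strand).
HLTF: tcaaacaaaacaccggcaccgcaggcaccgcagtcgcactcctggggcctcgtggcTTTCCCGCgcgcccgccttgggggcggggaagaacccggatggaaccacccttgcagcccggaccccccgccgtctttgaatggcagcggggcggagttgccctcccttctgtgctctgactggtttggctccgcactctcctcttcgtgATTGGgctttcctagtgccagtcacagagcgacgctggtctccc
RAD18: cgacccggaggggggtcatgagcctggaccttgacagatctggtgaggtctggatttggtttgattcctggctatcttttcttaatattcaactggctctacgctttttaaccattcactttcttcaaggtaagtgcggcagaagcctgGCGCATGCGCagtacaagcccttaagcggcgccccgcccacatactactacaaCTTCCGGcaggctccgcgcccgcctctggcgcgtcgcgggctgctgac
POLI: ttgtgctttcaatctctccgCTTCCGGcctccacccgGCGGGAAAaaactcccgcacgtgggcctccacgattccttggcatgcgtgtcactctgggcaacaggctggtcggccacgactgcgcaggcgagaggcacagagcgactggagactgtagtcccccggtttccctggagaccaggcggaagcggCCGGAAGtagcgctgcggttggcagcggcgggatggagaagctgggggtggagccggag
REV3L: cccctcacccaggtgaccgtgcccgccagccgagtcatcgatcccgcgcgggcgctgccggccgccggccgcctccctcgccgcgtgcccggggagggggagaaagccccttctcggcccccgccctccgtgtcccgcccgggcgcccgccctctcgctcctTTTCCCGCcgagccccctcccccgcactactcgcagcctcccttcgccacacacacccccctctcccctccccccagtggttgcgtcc
The 3 genes with an E2F word gave log2 fold changes of 0.49 (HLTF), −0.046 (POLI) and 0.070 (REV3L), so that genes with the word included the highest and the lowest value of the 9.

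Genes that work with the 9 were read from lists by role, which were also chosen with earlier results of these data known. Of 14 genes that place, read or remove ubiquitin on PCNA, 12 were higher and 2 lower on average after etoposide (median log2 fold change 0.24). Unadjusted p-values were under 0.05 for 8 of them, all higher (7.06% of all genes), and 0 passed the adjusted threshold by limma. PCNA itself had 56.8 and 55.9 FPKM in etoposide libraries and 43.6 and 43.8 FPKM in DMSO libraries, with a log2 fold change of 0.37 (limma, adjusted p = 0.269). Here the DMSO libraries were almost equal, unlike for HLTF or REV3L. USP1, the protease that takes ubiquitin off PCNA, had 31.4 and 31.5 FPKM in etoposide and 19.3 and 24.8 FPKM in DMSO libraries (limma, adjusted p = 0.311). PCLAF, a PCNA-binding factor, had 26.3 and 24.997 FPKM in etoposide and 20.8 and 20.1 FPKM in DMSO libraries, and DTL, a substrate receptor for ligases acting at PCNA on chromatin, had 6.48 and 6.64 FPKM in etoposide and 4.85 and 5.32 FPKM in DMSO libraries.

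The partner subunits and other polymerases that can copy across lesions were divided, 4 higher and 5 lower of 9 tested, with a median of −0.032 and 0 past the adjusted threshold. By limma, unadjusted p-values were under 0.05 for 2 of the 9 (POLQ and POLD3), both higher, against 7.06% of all genes higher and 4.85% lower. POLN, the remaining gene of that list, was under the filter. POLD3, a subunit shared by polymerases delta and zeta, had 11.1 and 11.1 FPKM in etoposide and 7.69 and 9.10 FPKM in DMSO libraries (log2 fold change 0.40, limma, adjusted p = 0.341). MAD2L2, the REV7 subunit that joins REV3L to REV1, had 33.4 and 35.5 FPKM in etoposide and 38.3 and 35.3 FPKM in DMSO libraries (limma, adjusted p = 0.631). Subunits of polymerase zeta thus lay on both sides of 0. POLQ, the polymerase of theta-mediated end joining, had 7.21 and 7.25 FPKM in etoposide and 3.65 and 5.38 FPKM in DMSO libraries, the largest difference of this list at 0.69 on the log2 scale (limma, adjusted p = 0.336). POLD1, the catalytic subunit of polymerase delta, was at 10.6 and 10.2 FPKM in etoposide and 9.55 and 8.64 FPKM in DMSO libraries. POLL, a gap-filling polymerase, was at 7.90 and 7.95 FPKM in etoposide and 9.83 and 8.46 FPKM in DMSO libraries.

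Of 15 tested genes of fork remodelling and template switching, 12 lay above and 3 below 0 (median log2 fold change 0.23), with 7 unadjusted p-values under 0.05, all higher, and 0 past the adjusted threshold by limma. Of all genes tested, 56.2% lay above 0 and 7.06% were higher at an unadjusted p under 0.05. ETAA1 was under the filter. The smallest p-values belonged to TIMELESS and CLSPN, which hold the fork together and relay its checkpoint signal. TIMELESS had 24.2 and 23.5 FPKM in etoposide and 16.7 and 18.3 FPKM in DMSO libraries (log2 fold change 0.44, limma, adjusted p = 0.271), and CLSPN had 9.54 and 8.48 FPKM in etoposide and 5.12 and 6.47 FPKM in DMSO libraries (0.64, limma, adjusted p = 0.298). RADX, which acts at stalled forks, followed at 2.24 and 1.97 FPKM in etoposide and 1.11 and 1.42 FPKM in DMSO libraries, and RFWD3, a ubiquitin ligase acting on RPA, at 12.2 and 12.7 FPKM in etoposide and 9.12 and 10.1 FPKM in DMSO libraries.

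Markers of cell-cycle phases were read in the same way. Of 32 S phase markers, which include PCNA and CLSPN, 31 were higher after etoposide, with a median log2 fold change of 0.27 and 23 unadjusted p-values under 0.05, all higher (7.06% of all genes). CDT1, a replication licensing factor, had 7.35 and 7.27 FPKM in etoposide and 4.93 and 4.75 FPKM in DMSO libraries, and CDC6, its partner in licensing, had 10.8 and 10.7 FPKM in etoposide and 6.66 and 7.47 FPKM in DMSO libraries. Of 30 G2 and M phase markers, 26 were lower, with a median of −0.27 and unadjusted p-values under 0.05 for 16 lower genes and 1 higher (4.85% and 7.06% of all genes). KIF20A, a mitotic kinesin, had 18.3 and 17.3 FPKM in etoposide and 28.8 and 31.5 FPKM in DMSO libraries (limma, adjusted p = 0.169), and AURKA, a mitotic kinase, had 43.8 and 42.5 FPKM in etoposide and 63.2 and 60.8 FPKM in DMSO libraries. The medians of the 9 bypass genes and of the S phase markers were 0.23 and 0.27, against 0.12 and 0.24 after the length and GC correction and 0.15 and 0.25 without DMSO replicate 1. The part of the cells' phase in the values of the bypass genes was not tested. No gene of these 2 lists passed an adjusted p of 0.05 by limma.

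**Figure D5:**
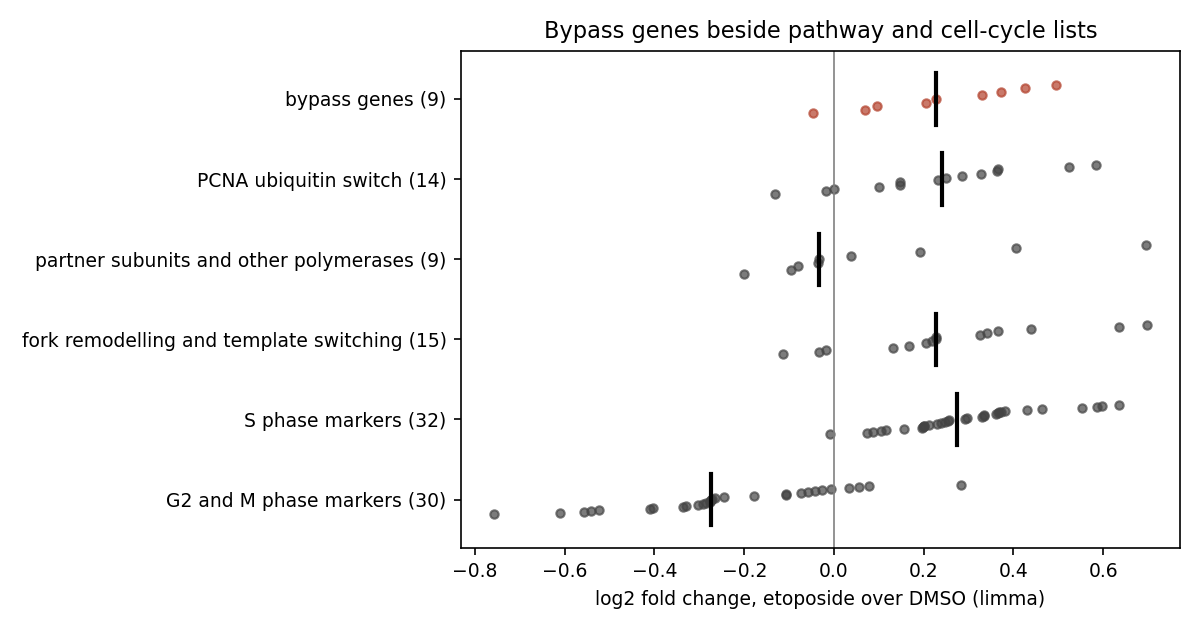
Log2 fold change (etoposide over DMSO, limma) of each gene, one row per list with the number tested in brackets, and the median as a vertical bar. The medians are 0.23 for the 9 bypass genes, 0.24, −0.032 and 0.23 for the 3 pathway lists, 0.27 for S phase and −0.27 for G2 and M phase markers.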

How the data were processed

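RNA of 4 OVCAR3 libraries (etoposide and DMSO, 2 each) was made into stranded mRNA libraries and read as pairs of 100 bases. Per the labels and the file headers, the authors used HISAT2 for alignment to GRCh38, SAMtools for sorting and StringTie 2.1.7 for quantification against Ensembl 104, with no strand option. The deposited files give, in other units than counts, a coverage per base, an FPKM and a TPM for each of 236853 transcripts. The submitters' notes also name DESeq2 for the authors' comparison, which was not used here.

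FPKM was summed per gene. limma 3.58.1 (R 4.3.3) with a variance trend and robust moderation was run on log2(FPKM + 0.1) for the 22185 genes whose mean FPKM reached 0.1, and on 71340 transcripts, with 2 residual degrees of freedom and Benjamini-Hochberg adjustment over all of them. Fold changes on this scale understate the change of low genes. Coverage along a transcript was averaged in 10 equal segments of its length, the first and last 3 of which are called its 5′ and 3′ ends, and scaled to mapped pairs, which were taken from the ratio of coverage to FPKM. GENCODE 44 gave transcript types. Pandas 2.3.3, numpy 2.4.6 and matplotlib 3.10.9 (Python 3.11.15) were used.

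The members and lists were chosen with earlier results of these data known. All 9 members were named, and from each pathway list PCNA, USP1, POLD3, MAD2L2 and the 4 genes with the smallest p, from each of the other lists the 2 smallest. Read pairs behind a member, estimated from coverage, ranged between 346 and 10875 per library. The test was checked on simulated data, where it recovered 57.9% of 1.5-fold and 80.6% of 2-fold changes. All 9 genes differed by less than 1.5-fold. Alternatives were other pseudocounts, filters, scalings and TPM, voom on estimated fragments, no trend, coding genes alone, a length and GC correction, a replicate block and leaving out each library. Reads were not analysed here, and 1 further gene list is not reported here.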

Additional observations from a re-analysis of the deposited data

How the results depend on the processing

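The number of the 9 genes past an adjusted p of 0.05 was 0 in every alternative run except without DMSO replicate 2, where it was 4, so that it ranged between 0 and 4 when a library was left out. The number of all genes past it was 1 with voom, 6 after the length and GC correction and 5 to 1934 when a library was left out, 1934 being without DMSO replicate 2. With all 4 libraries, 7 of the 9 genes had groups that did not overlap, all higher after etoposide. Of all genes tested, 28.9% lay wholly above and 19% wholly below. After the length and GC correction 6 of the 9 lay wholly above and 2 wholly below, and the share of all genes is not given there. With a library left out, a single library stands for a group and groups fail to overlap more easily, so those counts are not compared. The median log2 fold change of the 9 genes was 0.12 after the length and GC correction and 0.15 to 0.38 when a library was left out. POLH was −0.043 after that correction. REV3L was −0.17 after it, −0.24 without DMSO replicate 1 and −0.19 at the 3′ end of its transcript, an alternative chosen after seeing the data. POLI was −0.29 after the length and GC correction, 0.018 with TPM, 0.068 without DMSO replicate 2, 0.097 at the 3′ end, and between −0.16 and 0.068 when a library was left out. The other 6 genes kept their direction in all alternatives run, but after the length and GC correction they were at 0.27 (HLTF), 0.22 (SHPRH), 0.15 (RAD18), 0.15 (PRIMPOL), 0.12 (POLK) and 0.064 (REV1). The median of the partner subunits was 0.034 with TPM, 0.0049 after the correction and −0.15 to 0.098 when a library was left out. The median of the S phase markers was 0.34 with TPM, 0.22 with upper-quartile scaling and 0.25 to 0.33 when a library was left out, and that of the PCNA ubiquitin list was 0.12 with voom. TPM moved the median of all genes to 0.10, against 0.036 with FPKM. The causes of these shifts were not tested. With the replicate number as a block, 0 of the 9 genes and 0 genes overall passed, and the median stayed at 0.23. The differences of same-numbered replicates had a correlation of 0.013 over genes, which shows no pairing by number. It cannot exclude a pairing, since DMSO replicate 1 stood apart from the other libraries.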
